A study of Mus musculus with 16 samples.

Results

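Cisplatin enters kidney tubule cells through organic cation and copper carriers, leaves them through an exporter to the urine and through copper pumps, and is made more toxic by enzymes that trim its glutathione conjugate. The 10 genes described here encode that route: Slc22a2, Slc47a1, Slc31a1, Slc31a2, Atp7a, Atp7b, Ggt1, Dpep1, Anpep and Ccbl1. They were named for their known place in cisplatin handling, by a rule that uses no measured value, though with earlier results of these data known, and they are 10 of the 23935 gene symbols in the table. The table lists 9 of them by these symbols, and Ccbl1 was found as Kyat1, its current symbol in RefSeq.

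The 16 samples are whole kidneys of mice labelled WT, and 4 belong to each of these groups: cisplatin with NMN, cisplatin with NR, cisplatin, and PBS; the first and second are called NMN and NR. NR stands for nicotinamide riboside and NMN for nicotinamide mononucleotide, which is NR with a phosphate group; cells make the cofactor NAD from either. They were given by injection ahead of cisplatin, and the kidneys were taken 3 days after the cisplatin; the labels state no dose, strain, sex or age. Whether the 4 samples of a group are 4 mice is not stated either, so the p-values cover only sample-to-sample spread, and that spread may be technical.

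Proximal tubule cells carry OCT2 (the Slc22a2 product) on the blood side and MATE1 (the Slc47a1 product) on the urine side, and this pair moves organic cations from blood to urine. Copper carriers (CTR1 from Slc31a1, CTR2 from Slc31a2) and the copper pumps ATP7A and ATP7B also handle platinum in cultured cells. On the brush border, gamma-glutamyl transferase (Ggt1) followed by dipeptidase 1 (Dpep1) or aminopeptidase N (Anpep) turns a glutathione conjugate into a cysteine conjugate, which the lyase encoded by Ccbl1 can split into a reactive thiol.

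The stretches just before the start sites of 4 of these genes are printed because the genes moved in different ways: Slc22a2, Dpep1 and Anpep were lower with cisplatin than with PBS, and Slc31a2 was higher. Each is the 250 bases before a start site that RefSeq lists in build GRCm38.p6, read 5′ to 3′ on the gene's own strand; that of Slc31a2 lies inside the gene's span, which also has an earlier start. They lie at chr17:12583939-12584188 on the plus strand for Slc22a2, chr8:123185985-123186234 on the plus strand for Dpep1, chr4:62286179-62286428 on the plus strand for Slc31a2, and chr7:79848211-79848460 on the minus strand for Anpep. Capitals mark matches, on either strand, to any of 5 short motifs: GTTAAT (a core of HNF1 sites), AAAGTCCA (a core of HNF4 sites), TGCGCNC or TGCACNC (the core of metal response elements), GGGCGG (the GC box) and TATAAA (the TATA box).
Slc22a2: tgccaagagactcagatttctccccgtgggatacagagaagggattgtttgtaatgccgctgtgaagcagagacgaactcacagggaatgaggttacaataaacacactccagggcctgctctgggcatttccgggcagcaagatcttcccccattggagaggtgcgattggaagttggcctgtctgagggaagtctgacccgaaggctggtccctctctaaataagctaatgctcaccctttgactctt
Dpep1: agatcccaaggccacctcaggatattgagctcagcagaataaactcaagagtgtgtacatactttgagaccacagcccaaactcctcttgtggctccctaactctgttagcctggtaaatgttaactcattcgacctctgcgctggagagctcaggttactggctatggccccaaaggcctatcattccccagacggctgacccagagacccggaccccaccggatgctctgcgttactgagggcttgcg
Slc31a2: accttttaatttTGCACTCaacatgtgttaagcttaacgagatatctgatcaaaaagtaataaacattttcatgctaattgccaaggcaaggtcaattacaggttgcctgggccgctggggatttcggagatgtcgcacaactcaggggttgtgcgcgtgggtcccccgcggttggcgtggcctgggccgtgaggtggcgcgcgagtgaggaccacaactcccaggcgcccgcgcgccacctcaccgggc
Anpep: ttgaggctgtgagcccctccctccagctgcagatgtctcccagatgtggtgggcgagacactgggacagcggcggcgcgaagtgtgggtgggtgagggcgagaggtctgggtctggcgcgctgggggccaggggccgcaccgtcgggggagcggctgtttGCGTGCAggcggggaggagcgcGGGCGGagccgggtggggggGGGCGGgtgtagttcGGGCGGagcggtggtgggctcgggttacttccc
The Slc22a2 and Dpep1 stretches held none of the 5 motifs. The Slc31a2 stretch held 1 metal response core, and the Anpep stretch held 1 metal response core and 3 GC boxes, with no overlap between them. Of all 32851 RefSeq stretches of the same length, 6.43% held GTTAAT, 1.01% AAAGTCCA, 21.4% a metal response core, 32.7% a GC box and 12.4% the TATA box. G and C made up 72.8% of the Anpep stretch, 56.0% of that of Slc31a2, 53.6% of that of Dpep1 and 51.6% of that of Slc22a2, beside a median of 52.4% over all stretches. The table matched 9 of the 10 genes. Among the others, Atp7a had 2 metal response cores and 1 GC box, Atp7b had 1 metal response core, and Slc31a1 and Ccbl1 had 1 GC box each. Ggt1 had 4 start sites listed, of which 2 had a GC box and 1 a TATA box. These matches describe letters and show no binding.

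All values are TPM, transcript abundances scaled by gene length and then to the same total in every library, so the depth of sequencing behind a value is unknown. Library totals over the table were 860428 to 903678 TPM. The 13 mRNAs encoded by mitochondria made up 22.7% to 28.3% of the listed TPM with NMN, 22.1% to 30.3% with NR, 15.6% to 17.6% with cisplatin and 25.03% to 34.0% with PBS. Markers of the proximal tubule, the cell that carries most of this route, moved with the groups: the summed TPM of 10 of them was 3469 to 4284 with NMN, 3301 to 3682 with NR, 228 to 313 with cisplatin and 4770.3 to 5326 with PBS, and none was at 0 in any group. The summed TPM of 5 markers of tubular injury was 487 to 1272 with NMN, 1001 to 1177 with NR, 4036 to 4469.8 with cisplatin and 3.28 to 14.9 with PBS. Markers of several other kidney cell types, and of red blood cells, were low with cisplatin too. Compared with PBS, 2 of 3 markers of the distal convoluted tubule, 5 of 5 endothelial, 4 of 4 podocyte, 5 of 5 fibroblast and pericyte and 5 of 5 red blood cell markers fell, beside 18.6% of all tested genes. So did 3 of 5 of the thick ascending limb, whose summed TPM overlapped (266 to 732 with cisplatin, 659 to 1604 with PBS). Of 6 collecting duct markers 5 fell and 1 rose, and their summed TPM was not lower (481 to 571 with cisplatin, 432 to 543 with PBS). The summed TPM of the endothelial markers was 72.0 to 122 with NMN, 79.3 to 135 with NR, 13.9 to 49.1 with cisplatin and 88.8 to 164 with PBS. That of the red blood cell markers was 1357 to 2882 with NMN, 1268 to 2603 with NR, 8.20 to 33.9 with cisplatin and 1876 to 3819.8 with PBS. The 77 ribosomal protein genes made up 7.16% to 9.40% of the listed TPM with NMN, 7.49% to 10.1% with NR, 15.4% to 17.4% with cisplatin and 5.62% to 6.88% with PBS. In whole kidney RNA, fewer cells of a type and less RNA per cell cannot be told apart. Nor can either be told apart from a difference in how the kidneys of a group were handled, since that would follow the groups. The part of these markers and of the ribosomal share in the members' changes was not tested.

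Genes were tested when they reached 1 TPM in at least 4 of the 16 libraries, which left 12960 genes and 9 of the 10 described here. Differences are log2 changes of TPM + 1 from limma with their SE, and the threshold for a call was an adjusted p under 0.05 (Benjamini-Hochberg over the 12960 genes). TPM has a fixed total, and the median of all tested genes moved as well, by 0.27 for cisplatin against PBS, -0.23 for NMN against cisplatin and -0.20 for NR against cisplatin on the log2 scale.

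With cisplatin against PBS, 6 of the 9 tested genes fell, 1 rose and 2 did not pass the test. Over all tested genes, 18.6% were called lower and 40.7% higher in that comparison, while median-of-ratios scaling gave 28.6% and 29.2%, with counts of 6 and 1 among these genes again. The groups did not overlap for 7 of the 10 genes, beside 50.8% of all tested genes. The median log2 change of the 9 was -1.11, beside 0.27 over all genes. Relative to that median of all genes, the 6 falls lay between -1.17 for Slc31a1 and -4.40 for Dpep1.

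**Figure D1:**
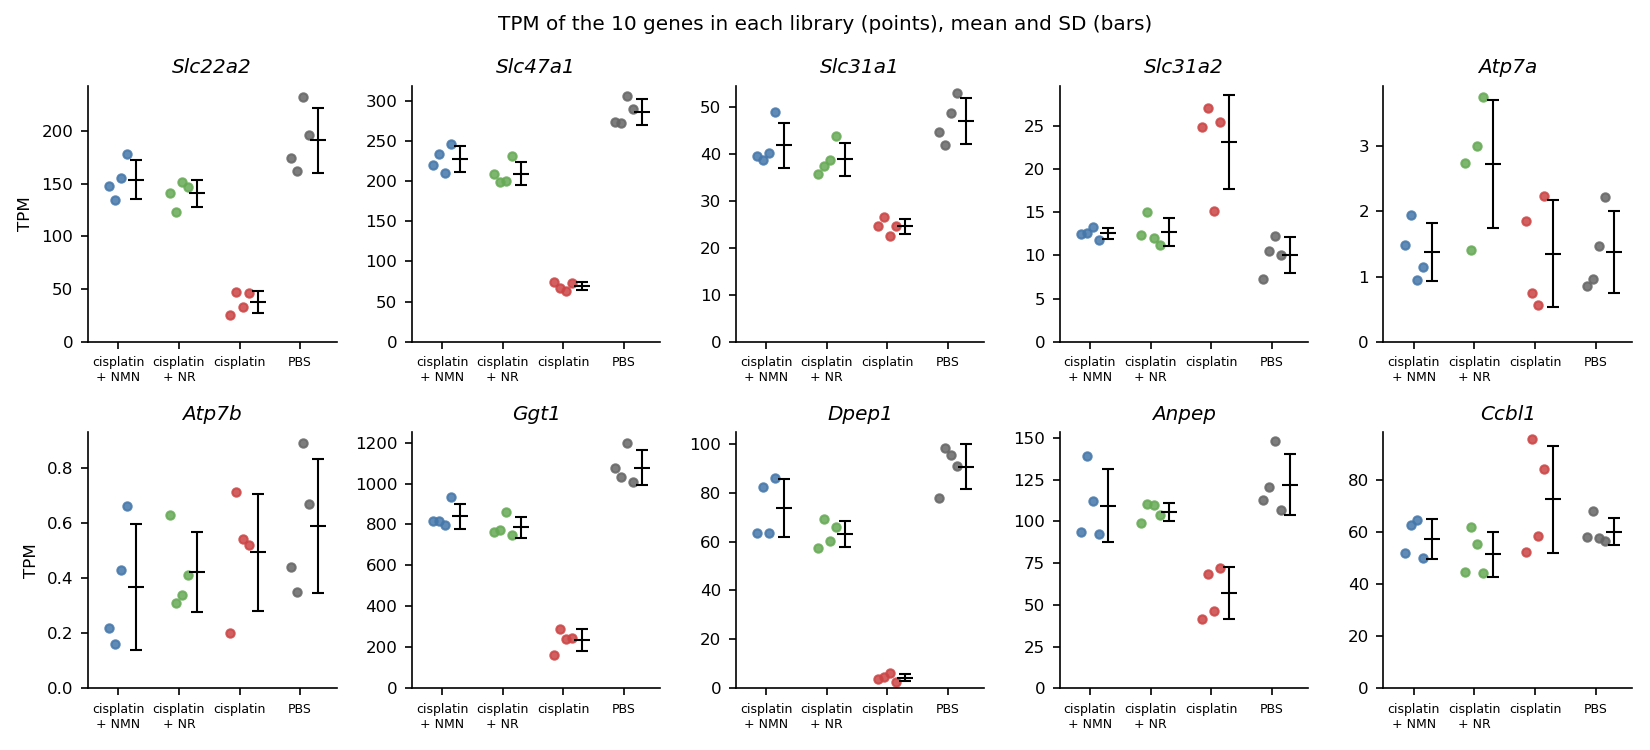
TPM of each of the 10 genes (vertical axes, linear, starting at 0) in the libraries of the 4 groups; points are libraries, and bars are the mean and SD of 4. The cisplatin libraries lie below all the others for Slc22a2, Slc47a1, Slc31a1, Ggt1, Dpep1 and Anpep and above all the others for Slc31a2.

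The carriers for organic cations, on both sides of the tubule cell, were low in kidneys with cisplatin alone. Slc22a2, which brings cisplatin in from the blood, had 147, 134, 156 and 178 TPM with NMN, 141, 123, 152 and 147 TPM with NR, 25.4, 47.4, 32.8 and 46.0 TPM with cisplatin, and 174, 162, 232 and 196 TPM with PBS. All cisplatin libraries lay far below the lowest library of every other group. The NMN libraries overlapped with PBS, while every NR library was below every PBS library. It fell with cisplatin by 2.33 on the log2 scale (SE 0.168, adjusted p 1.41e-09 in limma), to a mean of 37.9 ± 10.6 TPM, against 191 ± 30.9 TPM with PBS (SD, n = 4 each). With NMN against cisplatin it was higher by 2.03 (adjusted p 3.09e-08) and with NR by 1.90 (adjusted p 8.43e-08) in limma.

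Slc47a1, the exporter on the urine side, was among the tightest of these genes within a group. It had 219.7, 233, 210.0 and 247 TPM with NMN, 208, 199, 199 and 230.4 TPM with NR, 73.9, 67.3, 63.2 and 73.8 TPM with cisplatin, and 274, 272, 306 and 289.9 TPM with PBS. No library of any precursor group reached the lowest PBS library, and no cisplatin library reached a precursor group. The gene fell with cisplatin by 2.02 (SE 0.0903, adjusted p 2.56e-12 in limma), and it was higher with NMN by 1.70 (adjusted p 7.28e-11) and with NR by 1.58 (adjusted p 2.28e-10) than with cisplatin. Uptake and export carriers were low together: the ratio of Slc22a2 to Slc47a1 in TPM was 0.677 ± 0.0741 with NMN, 0.673 ± 0.0636 with NR, 0.548 ± 0.155 with cisplatin and 0.667 ± 0.07 with PBS (SD, n = 4 each). Within the cisplatin group the ratio ran between 0.344 in library 1 and 0.704 in library 2, so the groups overlapped.

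The copper carriers split, with the high-affinity importer low and its relative high in the cisplatin libraries. Their genes lie near each other on chromosome 4, Slc31a2 at chr4:62280393-62298412 and Slc31a1 at chr4:62360583-62391769 (GRCm38.p6). Slc31a1, which encodes the main importer of copper at the cell surface, had 39.6, 38.8, 40.3 and 49.0 TPM with NMN, 35.7, 37.5, 38.7 and 43.9 TPM with NR, 24.8, 26.6, 22.6 and 24.6 TPM with cisplatin, and 44.8, 41.9, 48.8 and 53.0 TPM with PBS. The cisplatin libraries lay apart from the others, while both precursor groups overlapped with PBS. It fell with cisplatin by 0.90 (SE 0.112, adjusted p 1.67e-06 in limma), and was higher than with cisplatin by 0.74 with NMN (adjusted p 3.15e-05) and by 0.64 with NR (adjusted p 0.000164).

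Slc31a2 encodes CTR2, a copper carrier found mostly on endosomes and lysosomes. It had 12.5, 12.6, 13.3 and 11.8 TPM with NMN, 12.4, 14.99, 12.02 and 11.3 TPM with NR, 24.9, 27.1, 15.1 and 25.4 TPM with cisplatin, and 7.21, 10.6, 12.3 and 10.1 TPM with PBS. Cisplatin library 3, at 15.1 TPM, was close to the highest NR library, and the other 3 cisplatin libraries were well above every library of the other groups. Slc31a2 rose with cisplatin by 1.12 (SE 0.175, adjusted p 2.58e-05 in limma), which is 0.85 above the median of all genes, and fell with NMN by 0.80 (adjusted p 0.000998) and with NR by 0.79 (adjusted p 0.0012) relative to cisplatin. The ratio of Slc31a1 to Slc31a2 in TPM was 3.36 ± 0.541 with NMN, 3.13 ± 0.595 with NR, 1.11 ± 0.257 with cisplatin and 4.85 ± 1.09 with PBS (SD, n = 4 each). This ratio does not depend on the scaling of a library. Markers of other cells moved beside the rise of Slc31a2, and their part in it was not tested: the summed TPM of 5 markers of macrophages and monocytes was 59.5 to 112 with NMN, 78.7 to 91.4 with NR, 116 to 189 with cisplatin and 33.9 to 81.7 with PBS, and that of 5 fat markers was 24.4 to 62.0, 23.2 to 215, 135 to 276 and 24.9 to 71.8 in the same order of groups. With cisplatin against PBS, 1 of the 5 macrophage markers was higher and 1 lower, and 4 of the 4 tested fat markers were higher. Over all tested genes 40.7% were higher and 18.6% lower.

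**Figure D2:**
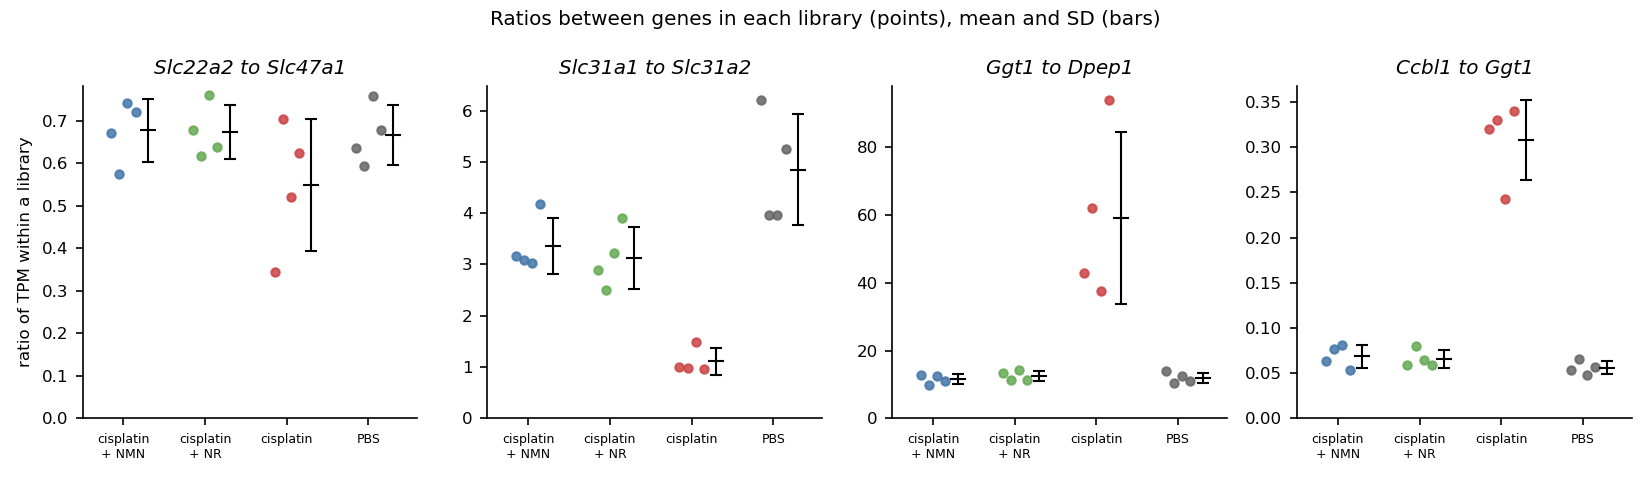
Ratios between the TPM of paired genes within a library (vertical axes, linear, starting at 0) in the 4 groups; points are libraries, and bars are the mean and SD of 4. The cisplatin libraries stand apart for Slc31a1 to Slc31a2, Ggt1 to Dpep1 and Ccbl1 to Ggt1, and overlap with the other groups for Slc22a2 to Slc47a1.

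The copper pumps had low levels in whole kidney. Atp7a had 1.48, 1.95, 0.94 and 1.15 TPM with NMN, 2.74, 1.41, 3.00 and 3.76 TPM with NR, 1.85, 0.75, 0.56 and 2.24 TPM with cisplatin, and 0.85, 0.96, 1.47 and 2.22 TPM with PBS. Every pair of groups overlapped. Its log2 change was -0.05 (SE 0.269, adjusted p 0.891) with cisplatin against PBS, with a 95% interval between -0.61 and 0.52. With NR against cisplatin it was called higher, by 0.69 (adjusted p 0.0428 in limma), and that call was lost without NR libraries 3 and 4 (0.42, adjusted p 0.337), without PBS library 1 and cisplatin libraries 1 and 3, to which limma's array weights gave the lowest weight (adjusted p 0.147), and without any 1 of cisplatin libraries 2 and 3 and NR libraries 1, 3 and 4 (adjusted p 0.0779 to 0.138). NR libraries 3 and 4 also held more adipose transcripts, with a summed TPM of 5 fat markers of 215 and 144, against 23.2 and 71.2 in NR libraries 1 and 2, and the part of this in the Atp7a values was not tested.

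Atp7b was listed at under 1 TPM in all 16 libraries and was not tested. It had 0.22, 0.16, 0.43 and 0.66 TPM with NMN, 0.63, 0.31, 0.34 and 0.41 TPM with NR, 0.20, 0.71, 0.54 and 0.52 TPM with cisplatin, and 0.44, 0.35, 0.89 and 0.67 TPM with PBS. The groups overlapped throughout, and in a limma fit with no filter it was not called in any of the 6 comparisons (adjusted p 0.541 or more).

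The enzymes that trim the glutathione conjugate on the brush border fell with cisplatin, with log2 changes between -4.13 and -1.11. Ggt1, which takes the first step, was the most abundant of the 10 genes and had 816, 816, 799.8 and 932 TPM with NMN, 761, 772, 863 and 747 TPM with NR, 163, 289.6, 241 and 248 TPM with cisplatin, and 1078, 1030.1, 1197 and 1006 TPM with PBS. The cisplatin libraries were far below the others, and every library with a precursor was below every PBS library. Ggt1 fell with cisplatin by 2.22 (SE 0.133, adjusted p 1.24e-10 in limma). It was higher with NMN by 1.86 (adjusted p 4.09e-09) and with NR by 1.76 (adjusted p 9.77e-09) than with cisplatin.

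Dpep1, which removes the glycine in the next step, had the largest fall of the 9 tested genes. It had 63.5, 82.3, 63.7 and 85.8 TPM with NMN, 57.5, 69.2, 60.2 and 66.1 TPM with NR, 3.81, 4.66, 6.42 and 2.64 TPM with cisplatin, and 77.8, 98.3, 95.5 and 90.9 TPM with PBS. The highest cisplatin library, at 6.42 TPM, lay far below the lowest library of any other group. Dpep1 fell by 4.13 on the log2 scale with cisplatin (SE 0.173, adjusted p 1.12e-12 in limma), and the mean was 20.7-fold lower than with PBS. Of all tested genes, 0.33% had a lower log2 change. With NMN it was higher than with cisplatin by 3.83 (adjusted p 7.08e-12) and with NR by 3.62 (adjusted p 1.81e-11) in limma.

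Anpep encodes an aminopeptidase that can take the same glycine step. It had 93.8, 139, 112 and 92.5 TPM with NMN, 98.9, 110.3, 109.9 and 104 TPM with NR, 41.4, 68.5, 46.2 and 72.0 TPM with cisplatin, and 113, 121, 148 and 107 TPM with PBS. The cisplatin libraries were all lower than the rest, and both precursor groups overlapped with PBS. Anpep fell with cisplatin by 1.11 (SE 0.17, adjusted p 1.87e-05 in limma), and it was higher with NMN by 0.95 (adjusted p 0.000164) and with NR by 0.92 (adjusted p 0.000262) than with cisplatin. The ratios between these enzymes set the cisplatin libraries apart from all others: the ratio of Ggt1 to Dpep1 was 11.6 ± 1.4 with NMN, 12.5 ± 1.55 with NR, 59.1 ± 25.5 with cisplatin and 11.98 ± 1.52 with PBS, and that of Ggt1 to Anpep was 7.94 ± 1.84, 7.44 ± 0.402, 4.21 ± 0.752 and 8.90 ± 0.705 in the same order of groups (SD, n = 4 each).

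Ccbl1, the lyase that forms the reactive thiol, was not called with cisplatin against PBS, unlike the 3 enzymes before it. It had 51.8, 62.8, 64.7 and 49.9 TPM with NMN, 44.5, 61.9, 55.3 and 44.1 TPM with NR, 52.3, 95.6, 58.6 and 84.2 TPM with cisplatin, and 58.1, 68.1, 57.9 and 56.6 TPM with PBS. Cisplatin libraries 2 and 4 were the highest of all 16, and cisplatin libraries 1 and 3 lay among the other groups. The log2 change with cisplatin against PBS was 0.23 (SE 0.17, adjusted p 0.262 in limma), or -0.04 relative to the median of all genes. Without the same 3 libraries of lowest weight, Ccbl1 was called higher with cisplatin (0.56, adjusted p 0.0146) and lower with NMN than with cisplatin (-0.65, adjusted p 0.00553).

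With NR against cisplatin, Ccbl1 was called lower (log2 change -0.46, adjusted p 0.0339 in limma), and this call was lost after median-of-ratios scaling (-0.25, adjusted p 0.285), without mitochondrially encoded genes (adjusted p 0.166) and without any 1 of cisplatin libraries 2 and 4 and NR libraries 1 and 4 (adjusted p 0.0924 to 0.134). Set against the first enzyme of the route, the lyase was relatively abundant with cisplatin: the ratio of Ccbl1 to Ggt1 was 0.0687 ± 0.0126 with NMN, 0.0654 ± 0.0101 with NR, 0.308 ± 0.0443 with cisplatin and 0.0562 ± 0.00743 with PBS (SD, n = 4 each).

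**Figure D3:**
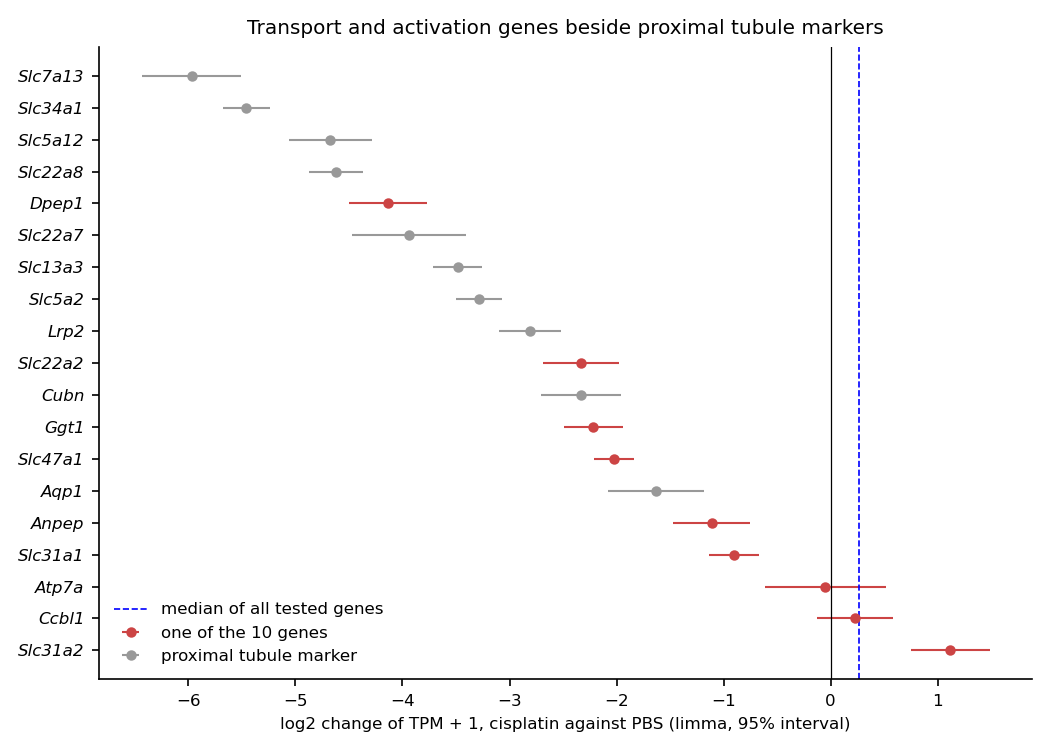
Log2 changes of TPM + 1 with cisplatin against PBS (horizontal axis) for the 9 tested genes and 10 proximal tubule markers; points are limma estimates, lines are 95% intervals, and the dashed line is the median of all tested genes. Dpep1, Slc22a2, Ggt1 and Slc47a1 lie within the range of the markers, and Anpep and Slc31a1 fell by less than any marker.

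All 10 proximal tubule markers fell with cisplatin against PBS, between -1.64 for the water channel gene Aqp1 and -5.97 for the amino acid carrier gene Slc7a13 on the log2 scale. The falls of Dpep1 (-4.13), Slc22a2 (-2.33), Ggt1 (-2.22) and Slc47a1 (-2.02) lay inside that range, and those of Anpep (-1.11) and Slc31a1 (-0.90) were smaller than that of any of the 10 markers. The part of a loss of tubule RNA in these changes was not tested.

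Both precursor groups were set against the same cisplatin libraries, so their changes share that group. With NMN, 6 of the 9 tested genes were higher than with cisplatin and 1, Slc31a2, was lower, beside 15.1% and 34% of all tested genes. With NR, 7 were higher and 2 lower, beside 14.4% and 32.2%, and the additional calls were those of Atp7a and Ccbl1, which were lost under several alternatives. The groups did not overlap for 7 of the 10 genes in each comparison, beside 44.3% of all tested genes with NMN and 41.8% with NR. The median log2 change of the 9 genes was 0.95 with NMN and 0.92 with NR, beside -0.23 and -0.20 over all genes.

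Set against PBS, the libraries with a precursor differed by calls only in the exporter gene and in Ggt1. Still, the median log2 change of the 9 genes was -0.17 with NMN and -0.27 with NR, beside 0.04 and 0.06 over all genes. With NMN, 0 of the 9 genes were called higher and 1 lower, beside 5.89% and 0.116% of all tested genes, and with NR 0 were higher and 2 lower, beside 8.79% and 1.21%. At an unadjusted p under 0.05 in limma, 2 of the 9 passed with NMN and 6 with NR, beside 16.4% and 22.1% of all tested genes. Slc47a1 averaged 227 ± 15.9 TPM with NMN and 209 ± 14.8 TPM with NR, against 285 ± 15.96 TPM with PBS (SD, n = 4 each). It was lower with NMN (log2 change -0.33, adjusted p 0.0369 in limma) and with NR (-0.45, adjusted p 0.00263), and the NMN call was lost without trend and robust (adjusted p 0.0909) and without any 1 of PBS libraries 1, 3 and 4 and NMN libraries 1, 2 and 3 (adjusted p 0.0521 to 0.15).

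Ggt1 averaged 841 ± 61.1 TPM with NMN and 786 ± 52.6 TPM with NR, against 1078 ± 85.1 TPM with PBS (SD, n = 4 each). It was called lower with NR (-0.45, adjusted p 0.0351 in limma) and not with NMN (-0.36, adjusted p 0.15), while NMN minus NR was 0.10 with an adjusted p of 1. The NR call was lost without any 1 of PBS libraries 1, 3 and 4 and NR libraries 1, 2 and 4 (adjusted p 0.0523 to 0.0993). Dpep1 averaged 73.8 ± 11.9 TPM with NMN, 63.2 ± 5.35 TPM with NR and 90.6 ± 9.1 TPM with PBS, and its change of -0.51 with NR against PBS did not pass (adjusted p 0.073) but did after median-of-ratios scaling (-0.61, adjusted p 0.0347), without mitochondrially encoded genes (adjusted p 0.049) and with only those 2 groups in the fit (adjusted p 0.0175). That of Slc31a1 passed after median-of-ratios scaling (-0.37, adjusted p 0.0474). Slc22a2 changed by -0.43 with NR against PBS, which did not pass in limma (adjusted p 0.125). It did without the 3 libraries of lowest weight (-0.47, adjusted p 0.0393). Among the 10 proximal tubule markers, 2 were lower with NMN than with PBS and 5 were lower with NR than with PBS.

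Between the precursors, 0 of the 9 genes and 0% of all tested genes were called by limma in either direction. At an unadjusted p under 0.05, 370 of all tested genes passed, which is 2.86%, and 1 of the 9, Atp7a (-0.62, 95% interval between -1.19 and -0.06). For Slc22a2 the difference of NMN minus NR was 0.13 with a 95% interval between -0.23 and 0.48, for Slc47a1 0.12 (between -0.07 and 0.31), for Ggt1 between -0.18 and 0.38 and for Dpep1 0.21 (between -0.15 and 0.57). For Slc31a1 the interval ran between -0.13 and 0.34, for Slc31a2 between -0.38 and 0.36, for Anpep between -0.33 and 0.39 and for Ccbl1 between -0.20 and 0.52. Apart from that of Atp7a, these intervals include 0, and several reach further on one side of 0 than on the other. Differences up to their ends are not excluded, and the doses of the precursors are not given.

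**Figure D4:**
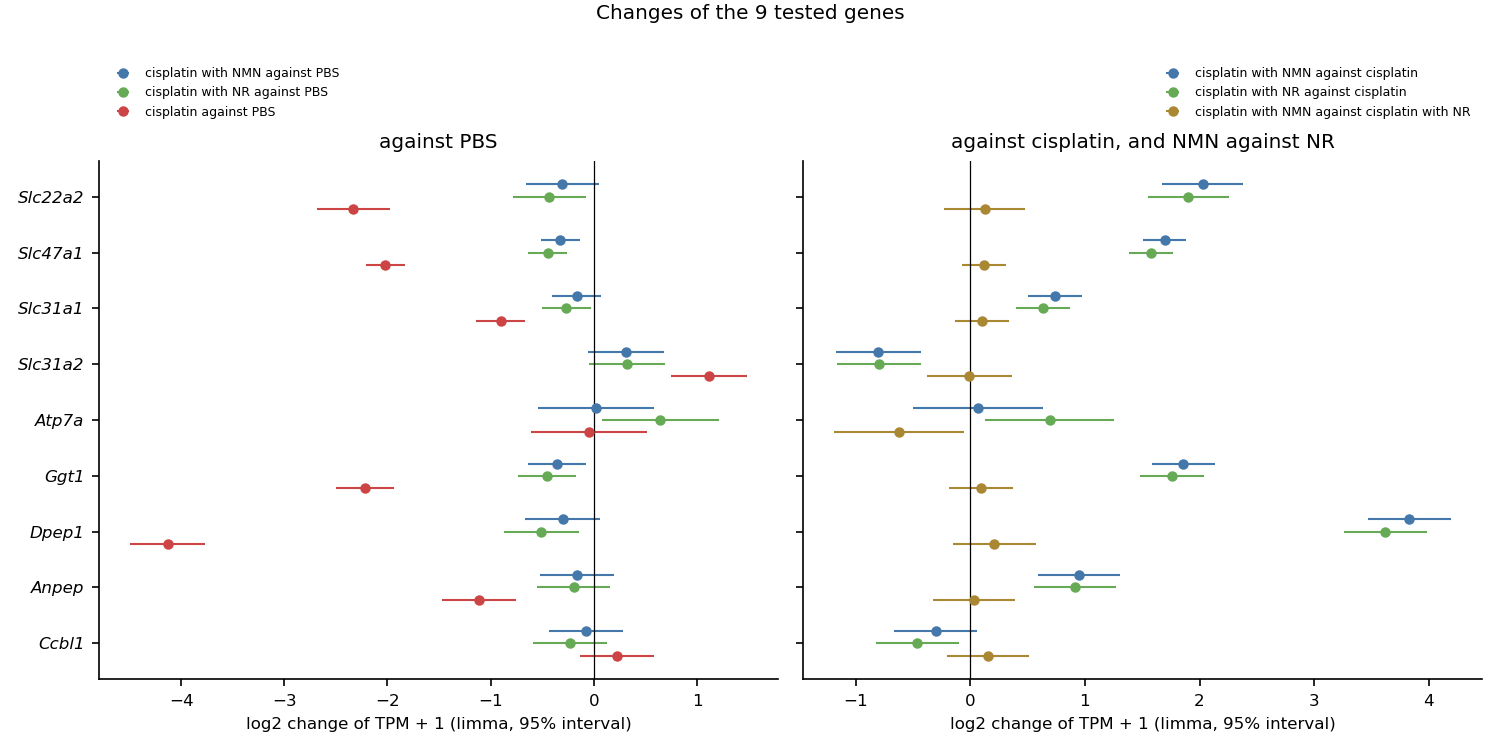
Log2 changes of TPM + 1 of the 9 tested genes against PBS (left) and against cisplatin or between the precursors (right); points are limma estimates and lines 95% intervals, coloured by comparison. Against PBS the cisplatin points of 6 genes lie far left of 0 while the NMN and NR points lie near it, and the intervals of NMN against NR include 0 for every gene except Atp7a.

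Some libraries held the extreme of their group for several of the genes. Some library of the 4 must hold each extreme, and such counts were not made over all tested genes. Cisplatin library 1 was the lowest of its group for 5 of the 10 genes and library 3 for 4, and library 2 was the highest for 6. PBS library 3 and NMN library 4 were each the highest of their group for 6 of the 10. The coefficient of variation was 28.0% for Slc22a2, 22.4% for Ggt1 and 36.3% for Dpep1 with cisplatin, against 16.2%, 7.90% and 10.04% with PBS.

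The profiles most like those of the members over the 16 libraries were named by the smallest root mean square difference in log2 change from PBS among 8653 genes. For Slc22a2 it was Fmo5 at 0.13, and Cubn, which encodes an endocytic receptor of the proximal tubule, came next. Slc47a1 was nearest to Hsd17b11 (0.11) and Slc31a1 to Tmbim6 (0.08). Ggt1 was nearest to Slc22a18 (0.11), and Dpep1 to Cyp2e1 (0.25), a gene of drug oxidation. Slc31a2 was nearest to the zinc carrier gene Slc39a13 (0.14), Anpep to the pyruvate carrier gene Mpc1 (0.15) and Ccbl1 to Guca2b (0.16), which encodes uroguanylin. Atp7a had no close match, since its nearest, Fzd1, differed by 0.31.

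The wider route was described from 5 lists of related genes. Other carriers for organic ions fell together: of the 5 tested of 7, 5 were lower with cisplatin than with PBS, 5 were higher with NMN than with cisplatin and 5 were higher with NR than with cisplatin, and Slc22a3 and Slc47a2 did not reach the filter. Over all tested genes these shares were 18.6%, 15.1% and 14.4%. Slc22a8, the organic anion carrier OAT3 and also 1 of the 10 proximal tubule markers, had 133 ± 19.5 TPM with NMN, 124 ± 10.7 TPM with NR, 6.24 ± 0.676 TPM with cisplatin and 177 ± 18.3 TPM with PBS (SD, n = 4 each). Slc22a6, the organic anion carrier OAT1, fell with cisplatin by 4.17 (adjusted p 3.69e-14 in limma), and Slc22a5, a carnitine carrier, by 1.29 (adjusted p 3.94e-09). The median log2 change of this list with cisplatin against PBS was -1.29, beside 0.27 over all genes.

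Enzymes of glutathione breakdown other than the members also fell with cisplatin. Of 14 tested of 16, 10 were lower and 1 higher than with PBS, with NMN 9 were higher and 1 lower than with cisplatin, and with NR 9 were higher and 0 lower. Over all tested genes 18.6% were lower and 40.7% higher with cisplatin, 15.1% were higher and 34% lower with NMN, and 14.4% were higher and 32.2% lower with NR. Acy3, which removes acetyl groups from mercapturates, ran between 1838 and 2107 TPM with NMN, 1470.0 and 1873 TPM with NR, 186 and 306 TPM with cisplatin and 2397 and 3055 TPM with PBS, so its cisplatin libraries lay far below all others. Its opposite, Nat8, which acetylates cysteine conjugates, fell with cisplatin by 3.21 (adjusted p 4.58e-12 in limma), and Cndp2, a cytosolic dipeptidase that splits cysteinylglycine, by 1.62 (adjusted p 1.89e-10). Against PBS, 0 were higher and 1 lower with NMN, and 1 higher and 4 lower with NR. The shares over all tested genes there were 5.89% and 0.116% with NMN, and 8.79% and 1.21% with NR.

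Copper handling genes as a list were called in both directions with cisplatin against PBS, at shares near those of all genes. With cisplatin against PBS, 9 of 20 were higher and 4 lower, beside 40.7% and 18.6% of all tested genes, and after median-of-ratios scaling 6 were higher and 7 lower, beside 29.2% and 28.6%. The metallothioneins Mt2 and Mt1, which bind copper, zinc and platinum, led the list by adjusted p: Mt2 had 2016 ± 662 TPM with NMN, 2171 ± 378 TPM with NR, 6091 ± 1073 TPM with cisplatin and 143 ± 30.5 TPM with PBS (SD, n = 4 each), and Mt1 rose with cisplatin by 4.02 (adjusted p 1.22e-11 in limma). Steap2, a metalloreductase, rose by 2.19 (adjusted p 1.11e-09). Atox1, the copper chaperone of the ATP7 pumps, which was chosen after its values were seen, averaged 1032 ± 51.9 TPM with cisplatin and 394 ± 41.2 TPM with PBS (log2 change 1.39, adjusted p 2.23e-06). With NMN against cisplatin 3 of the 20 were higher and 8 lower (7 and 6 after that scaling), and with NR 3 were higher and 6 lower (5 and 5). The shares over all tested genes were 15.1% and 34% with NMN, and 14.4% and 32.2% with NR. After that scaling they were 22.4% and 23.3%, and 21.5% and 22.1%. Against PBS, 5 were higher and 0 lower with each precursor. After that scaling 4 were higher and 0 lower with NMN, and 4 and 1 with NR. Over all tested genes, 5.89% were higher and 0.116% lower with NMN, and 8.79% and 1.21% with NR. With that scaling the shares were 5.68% and 0.741% with NMN, and 8.06% and 3.75% with NR. The higher share of this list was thus above that of all genes. Mt2 was among the 5 (3.77 with NMN and 3.92 with NR, adjusted p 3.23e-09 and 1.56e-09 in limma).

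Of 16 genes of glutathione synthesis and conjugation, 8 were higher and 2 lower with cisplatin than with PBS, beside 40.7% and 18.6% of all tested genes, or 7 and 5 after median-of-ratios scaling, beside 29.2% and 28.6%; these shares are not far from those of all genes. Gsta1, a glutathione transferase, had 45.4 ± 8.88 TPM with NMN, 47.3 ± 8.41 TPM with NR, 134 ± 15.3 TPM with cisplatin and 1.16 ± 1.1 TPM with PBS (SD, n = 4 each), and the split of reads between it and the near-identical Gsta2 is uncertain. Gsta4 rose with cisplatin by 1.20 (adjusted p 1.55e-07 in limma), and Gstk1, a kappa-class transferase, fell by 1.52 (adjusted p 8.36e-09). With NMN against cisplatin 1 was higher and 7 lower (5 and 6 after that scaling), and with NR 3 were higher and 6 lower (4 and 6). The shares over all tested genes were 15.1% and 34% with NMN, and 14.4% and 32.2% with NR. After that scaling they were 22.4% and 23.3%, and 21.5% and 22.1%.

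Efflux pumps and subunits of the volume-regulated anion channel, which carries cisplatin in cultured cells, formed the last list, of which Abcc2 was not analysed here. With cisplatin against PBS, 6 of 12 tested were higher and 2 lower, beside 40.7% and 18.6% of all tested genes. The counts were also 6 and 2 after median-of-ratios scaling, beside 29.2% and 28.6%. Abcb1b, a P-glycoprotein whose reads may be split with Abcb1a, had 6.7 ± 2.77 TPM with NMN, 8.94 ± 1.47 TPM with NR, 24.5 ± 4.36 TPM with cisplatin and 3.14 ± 1.31 TPM with PBS (SD, n = 4 each). Abcc3 and Abcc4, pumps for organic anions and drug conjugates, rose with cisplatin by 2.85 (adjusted p 9.61e-08 in limma) and 1.60 (adjusted p 1.07e-07). With NMN 2 of the 12 were higher and 6 lower than with cisplatin, and with NR also 2 and 6 (2 and 3 after that scaling). The shares over all tested genes were 15.1% and 34% with NMN, and 14.4% and 32.2% with NR (21.5% and 22.1% after that scaling). Between NMN and NR, limma called 0 genes of the 5 lists, and Abcc4, at 8.75 ± 0.419 TPM with NMN and 14.1 ± 2.33 TPM with NR, had an unadjusted p of 0.00117 there and an adjusted p of 1.

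**Figure D5:**
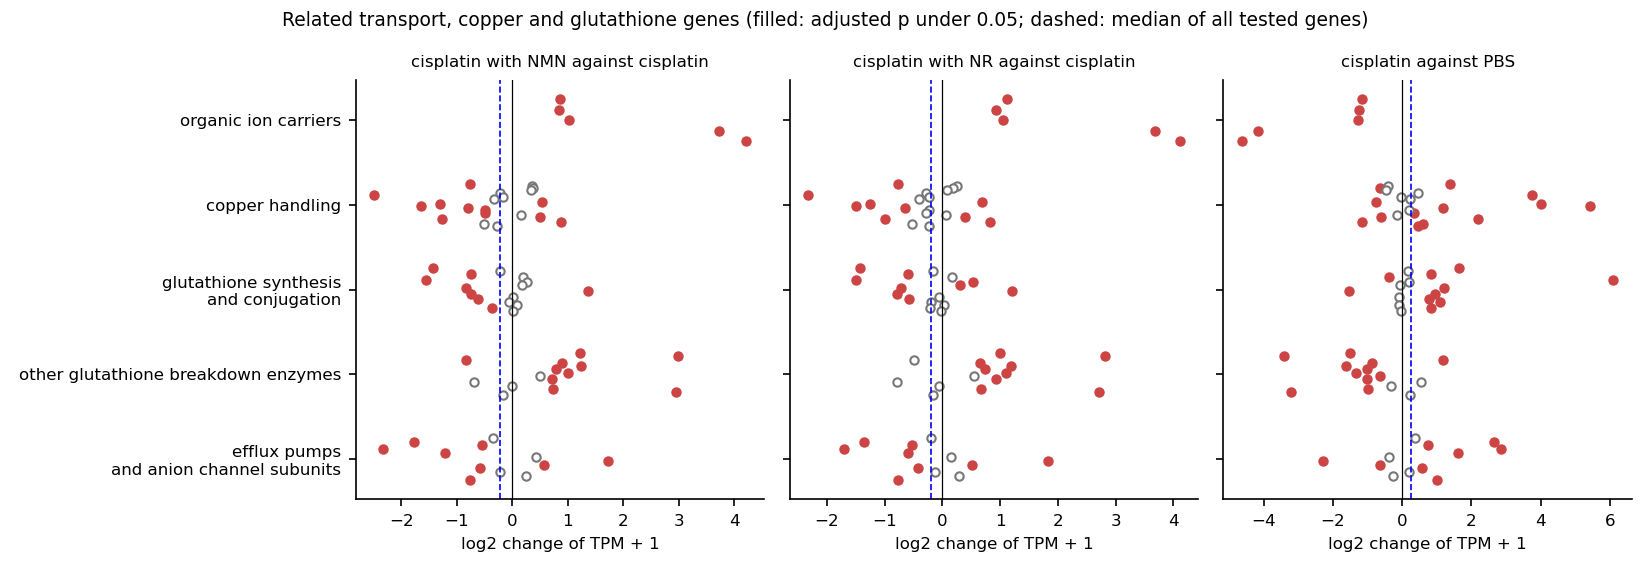
Log2 changes of TPM + 1 (horizontal axes) of the genes of 5 related lists in 3 comparisons; each point is a tested gene, filled where limma called it at an adjusted p under 0.05, and the dashed line is the median of all tested genes. With cisplatin against PBS the organic ion carriers all lie left of 0 and 10 of the 14 other glutathione breakdown enzymes are called lower, while the remaining lists spread to both sides.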

How the data were processed

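The authors deposited 1 table of TPM values with 2 decimals for 16 libraries of mouse whole kidney. Per the submitters' processing notes, the tools were DESeq2 1.10.1, HTSeq 0.6.1, STAR 2.4.1d and Trim Galore, and the builds named are mm10 and GRCm38; what each tool did, which gene lengths and annotation were used and whether strand was counted is not given in the sources used here. Groups were taken from the sample titles. Of 23982 entries, 94 shared a symbol and were summed, which left 23935 symbols. TPM keeps no read depth, so no counting interval can be given, and its fixed total raises other genes when abundant ones fall.

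The 12960 genes that reached 1 TPM in 4 or more libraries were fitted as log2(TPM + 1), on which low genes appear to change less than they do, in 1 limma model of 4 group means with 12 residual degrees of freedom (limma 3.58.1, statmod 1.5.0, R 4.3.3; empirical Bayes with trend and robust), with Benjamini-Hochberg adjustment over all tested genes. The procedure was tested on simulated data. A direction given in words stands for a call (adjusted p under 0.05), and SD is over 4 libraries. The members, the 5 lists and the markers were chosen with earlier results of these data known. All 10 members are named, with up to 3 genes per list of smallest adjusted p with cisplatin against PBS and, outside that rule, Atox1. Up to 3 like genes of at least 5 TPM on average were taken per tested member, among genes that are no members, predicted genes or pseudogenes.

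Alternatives were median-of-ratios scaling, removal of the 13 mitochondrially encoded genes, limma without trend and robust, a smaller pseudocount (0.1), a stricter filter (5 TPM) or no filter, a fit of the 2 groups compared alone, array weights, the replicate number as a block, and each library left out. Fits were added after seeing the data that leave out cisplatin libraries 1 and 3 with PBS library 1 (the 3 of lowest array weight), or NR libraries 3 and 4. Gene positions, start sites and sequences are from RefSeq (GRCm38.p6). Tables and figures were made in Python 3.11.15 with pandas 2.3.3, numpy 2.4.6 and matplotlib 3.10.9.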

Additional observations from a re-analysis of the deposited data

Results flagged for a closer look

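Each of the 10 genes was examined in each of the 4 groups for a library far from the other 3, by Dixon's gap over the range of the group, which makes 40 tests; chance alone flags about 1 in 20. The gap was above the 95% critical value in 3 of them. Slc31a1 in NMN library 4, at 48.98 TPM, stood above the other NMN libraries (gap over range 0.850). Ggt1 in NMN library 4, at 931.73 TPM, stood above the other NMN libraries as well (0.879). Ccbl1 in PBS library 2, at 68.12 TPM, stood above the other PBS libraries (0.875).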

How the results depend on the processing

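With cisplatin against PBS, 7 members were called as the data were first fitted and 7 or 8 under every alternative run, and the counts were 7 and 7 or 8 for NMN against cisplatin, 9 and 7 to 9 for NR against cisplatin, and 0 throughout for NMN against NR. No member's called change turned direction under any alternative. The count of 1 for NMN against PBS, Slc47a1, became 0 without trend and robust, 0 with only the 2 groups compared and 0 without the 3 libraries of lowest weight, and it ran between 0 and 2 with each library left out, where Ggt1 joined without cisplatin library 1. The count of 2 for NR against PBS became 4 after median-of-ratios scaling, 3 without mitochondrially encoded genes, 3 with only the 2 groups compared, 1 without trend and robust, 1 with no filter, 4 without the 3 libraries of lowest weight and 1 without NR libraries 3 and 4, and it ran between 1 and 3 with each library left out; the cause was not tested. Atp7a with NR against cisplatin missed the threshold with a pseudocount of 0.1 (adjusted p 0.05), with no filter (0.0603) and with only the 2 groups compared (0.0699), and Ccbl1 in that comparison with no filter (0.0531), with only the 2 groups compared (0.0717) and without NR libraries 3 and 4 (0.141), all in limma. With the replicate block, the counts stayed at 7, 7, 9, 1, 2 and 0 in the order cisplatin against PBS, NMN and NR against cisplatin, NMN and NR against PBS, and NMN against NR, and the block moved no member across the threshold. The deviations of libraries with the same number correlated between -0.13 and 0.29 (24 pairs, median 0.07, 9 over 0.1), beside a median of -0.01 with 4 over 0.1 among the 72 other pairs. In none of the 6 comparisons were all 4 same-number pairs over 0.1, and the main fit did not pair the samples. The same-number values were uneven, though. Between PBS, NMN and NR they ran from 0.05 to 0.29, and between cisplatin and another group from -0.13 to 0.11. Samples with the same number in PBS, NMN and NR may therefore be related, and no label says what the number marks. The read depth is unknown, which limits what can be said of Atp7a and Atp7b.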
